A study of Homo sapiens with 2 samples.

Results

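The genes described here were PML, RARA, RARB, RARG, RXRA, CYP26A1, DHRS3, TGM2, ASB2 and CRABP2, which are the fused genes of acute promyelocytic leukemia, the retinoic acid receptors and genes that bind, break down or respond to retinoic acid. They were chosen by name, with earlier results of these data known. Gene bodies were those of GENCODE release 44, extended by 20 kb on each side. Every deposited LDB1 peak that overlapped the extended body of a listed gene was counted as a peak at that gene. This gave 10 of 20015 protein-coding genes and 11 of 11046 peaks. The peaks came from CUT&Tag, in which an antibody brings a transposase to chromatin and the cut DNA is sequenced, in NB4, a human leukemia cell line established from promyelocytic leukemia that carries the PML-RARA fusion. The series had 2 libraries from NB4. The first was made with an LDB1 antibody and is labelled LDB1 overexpression, and the second was made with IgG and is labelled untreated, so antibody and treatment cannot be told apart. With 1 library in each group no test was possible, and the IgG library was not used here. For each peak the place and the length were given and no score, so depth is unknown, and intervals cover counting error only.

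Retinoic acid binds heterodimers of a retinoic acid receptor (RARA, RARB or RARG) and a retinoid X receptor such as RXRA, which sit on repeated hexamers in DNA near their target genes. In promyelocytic leukemia the front of PML is joined to a part of RARA that includes its ligand-binding end. The fusion gene is transcribed from the PML promoter. Its protein holds differentiation genes down and releases them when retinoic acid is given. LDB1 is a co-regulator without a DNA-binding domain of its own. It is known to join LMO2 and, through it, TAL1 and GATA factors, and the element read by such a complex is a CTG followed at a short distance by a GATA motif.

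Sequence was therefore read for 3 kinds of match, on both strands of the central 200 bp of each peak. The GATA motif was NGATAN with A or T in the first open place and A or G in the last. The composite was CTG followed after 7 or 8 bases by a GATA motif, so that each composite also counted as a GATA match. The receptor hexamer was NGNTCA with A or G in the first open place and G or T in the second, and a hexamer repeat was a pair of these in the same orientation with 1, 2 or 5 bases between them. The centre of the CYP26A1 peak, which held a composite and a hexamer repeat, is shown first, from chr10:93078050-93078249 of hg38 on the plus strand, with the composite in capitals.

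CYP26A1 peak centre: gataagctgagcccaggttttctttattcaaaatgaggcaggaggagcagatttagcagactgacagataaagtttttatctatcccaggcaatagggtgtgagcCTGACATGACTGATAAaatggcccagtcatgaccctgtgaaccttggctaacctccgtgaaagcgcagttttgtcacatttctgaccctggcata

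The hexamer repeat of the same window lies on the minus strand at chr10:93078184-93078197, with 2 bases between the hexamers. In the line above it is found as its reverse complement.

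CYP26A1 peak repeat: GGTTCACAGGGTCA

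The centre of the longer DHRS3 peak is shown because it held a hexamer repeat with 5 bases between the hexamers, in capitals. It is chr1:12604435-12604634 of hg38, written along the minus strand, which is the strand of the gene.

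DHRS3 peak centre: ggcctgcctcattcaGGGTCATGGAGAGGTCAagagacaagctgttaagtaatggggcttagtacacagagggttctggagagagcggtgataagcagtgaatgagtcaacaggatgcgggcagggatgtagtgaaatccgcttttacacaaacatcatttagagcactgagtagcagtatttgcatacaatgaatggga

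A pair of stretches away from peak centres, chosen after their matches were seen, is shown from the longest peaks. In RXRA the stretch is chr9:134338605-134338741 of hg38 on the plus strand, with a composite in capitals. In TGM2 it is chr20:38160084-38160218 on the minus strand, with a pair of GATA motifs in opposite orientation in capitals.

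RXRA intron 1 composite: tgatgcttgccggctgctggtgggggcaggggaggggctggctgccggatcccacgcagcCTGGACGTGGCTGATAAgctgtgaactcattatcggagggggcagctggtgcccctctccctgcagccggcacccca

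TGM2 intron 2 GATA pair: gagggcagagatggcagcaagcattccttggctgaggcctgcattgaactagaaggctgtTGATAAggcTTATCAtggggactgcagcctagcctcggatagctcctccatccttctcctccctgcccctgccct

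Results showed that 6 of the 10 genes (60%, 95% Wilson interval 31.3 to 83.2%) had a peak, where 6348 of 20015 protein-coding genes did (31.7%). The background lay just inside the interval. The 6 genes were PML, RARG, RXRA, CYP26A1, DHRS3 and TGM2, and RARA, RARB, ASB2 and CRABP2 had none. RXRA had 3 peaks, RARG, DHRS3 and TGM2 had 2 each, and PML and CYP26A1 had 1 each. Among all protein-coding genes, 8.08% had 3 or more. A peak inside the gene body was found in 3 genes (RXRA, DHRS3 and TGM2), where 16.5% of all protein-coding genes had one, and of the 11 peaks 6 touched a body while 5 lay in the flanks.

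Since long genes offer more room for peaks, the count was also set against window length. The 10 windows summed to 1700 kb and held 0.647 peaks per 100 kb (95% Poisson interval 0.323 to 1.16), and the windows of all protein-coding genes held 0.623. RARB took up 950.0 kb of that length. Without it, an alternative added after seeing the data, the density was 1.47. Leaving out a gene without a peak can only raise the density, and the value of all genes keeps such genes. The density of single genes ran from 3.20 per 100 kb at RARG through 2.53 at TGM2, 2.25 at CYP26A1, 2.21 at DHRS3 and 1.83 at RXRA to 1.07 at PML. The intervals of neighbours in this order overlapped in each case, for example 0.388 to 11.6 at RARG and 0.0272 to 5.98 at PML. For the genes with no peak the upper bound was 0.388 per 100 kb at RARB, below the value of all genes, but 4.17 at RARA, 4.47 at ASB2 and 7.98 at CRABP2, where the windows are short.

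**Figure D1:**
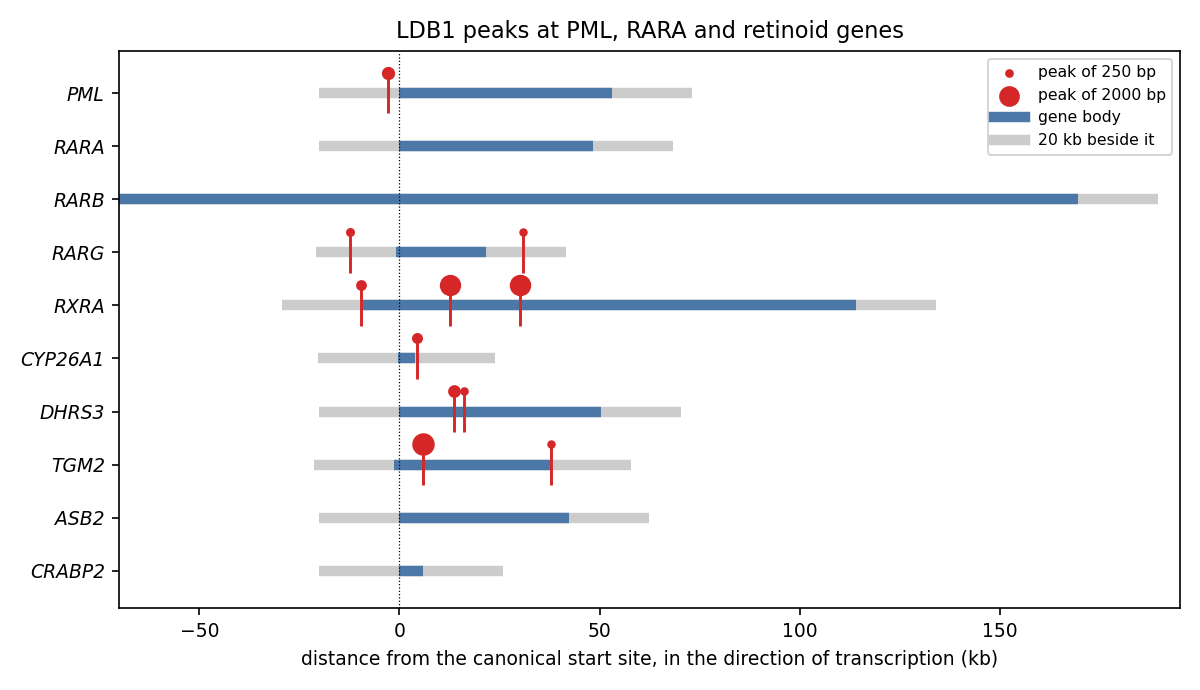
LDB1 peaks at the 10 genes, drawn by distance in kb from the canonical start site in the direction of transcription. Blue bars are gene bodies, grey bars the 20 kb beside them and red points the 11 peaks, larger for longer peaks. RARB runs off the left edge of the plot, and no peak was left out there. RARA, RARB, ASB2 and CRABP2 have no point, RXRA has 3, and the large points are in RXRA and TGM2.

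The fused genes were examined first. PML (ENSG00000140464.20, chromosome 15, 73994673 to 74047827, plus strand), which builds the nuclear bodies named after it, had a single peak of 718 bp at chr15:73991509-73992226. It lay upstream, with its midpoint 2849 bp from the canonical start site of PML and its near edge 2447 bp before the gene. However, the midpoint was only 33 bp from an annotated start of STOML1, a neighbour coding for a stomatin-like protein, and fell within STOML1. The peak was thus closer to a start of STOML1 than to that of PML, and which gene it acts on was not tested. It was longer than 78.7% of all peaks, and its centre held 2 GATA motifs, 1 receptor hexamer and 3 matches to the RUNX motif. The RUNX matches overlap end to end in a single run and are not separate sites. No peak was called inside the 53.2 kb of PML itself.

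RARA (ENSG00000131759.18, chromosome 17, 40309180 to 40357643, plus strand), the receptor whose gene is broken in this leukemia, had no peak in its 48.5 kb or in the flanks. The nearest was 79836 bp beyond its 3′ end at chr17:40437479-40437907 (429 bp), and the start site closest to that peak was of IGFBP4, 5757 bp away. On the 5′ side the nearest peak was 456 kb off. RARA therefore sat in a stretch of 585 kb without a peak, the 1095th longest of the 11023 stretches between neighbouring peaks, whose median was 30.5 kb. Peaks were placed on the reference genome, so reads from the fused and the normal alleles of PML and RARA cannot be told apart.

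The other receptors differed from one another. RARB (ENSG00000077092.20, chromosome 3, 24687887 to 25597932, plus strand), itself a classical target of retinoic acid, had no peak over its 910.0 kb. It lay in a peak-free stretch of 7020 kb, the 32nd longest, and the nearest peak, at chr3:24519991-24520585 (595 bp), was 167302 bp before the gene and 24532 bp from a start site of THRB. RARG (ENSG00000172819.17, chromosome 12, 53210567 to 53232980, minus strand) had 2 short peaks, both outside the gene. The first, of 232 bp at chr12:53201110-53201341, was 9226 bp past the 3′ end of RARG and 75 bp from a start of ITGB7, which codes for an integrin subunit. The second, of 277 bp at chr12:53244327-53244603, had its midpoint 12256 bp upstream of the RARG start, within 2565 bp of the start of the protein-coding gene ENSG00000283536. The first held 1 receptor hexamer and no GATA motif, and the second held 2 GATA motifs.

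RXRA (ENSG00000186350.12, chromosome 9, 134317098 to 134440585, plus strand), the shared partner of the retinoic acid receptors, had the most peaks of the 10 genes, and they covered 4731 bp. Its first peak, of 438 bp at chr9:134316602-134317039, ended 59 bp before the first annotated base and had its midpoint 278 bp from the nearest annotated RXRA start, 9635 bp upstream of the canonical start. It is the sole peak of the 11 within 1 kb of an annotated start of the gene it was counted for. The other two lay in intron 1, at chr9:134337987-134340119 (2133 bp) and chr9:134355602-134357761 (2160 bp), with 15482 bp between them. They ranked 127th and 120th among the longest peaks of the whole list, and their midpoints were 12598 and 30226 bp after the canonical start. Only 158 of all peaks (1.43%) were over 2 kb. Of the protein-coding genes, 216 (1.08%) had such a peak in the window and 18 (0.0899%) had 2 or more, RXRA among them, a count made after the lengths were seen. The second peak had a GC content of 70.0% in its centre, the highest of the 11, and no GATA motif there. Its composite, printed above, was centred 380 bp before the midpoint. The third held 1 GATA motif in its centre and 3 over its whole length.

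Of the genes that lower retinoic acid, CYP26A1 (ENSG00000095596.12, chromosome 10, 93073475 to 93077885, plus strand), a cytochrome that oxidises it and is itself induced by it, had 1 peak of 454 bp at chr10:93077924-93078377. The peak began 39 bp past the last base of the gene, 4257 bp after the canonical start by its midpoint, and the next peak was 101 kb away. Its centre held 3 GATA motifs, of which 1 was part of the composite, and 3 receptor hexamers, of which 2 formed the repeat. The composite was centred 12.5 bp and the repeat 40.5 bp after the midpoint. Of the 89 peaks with a hexamer repeat in the list, 9 also had a composite, this one included (10.1%, where 11.1% of all peaks had one). The same peak lay in the window of CYP26C1, a related cytochrome beside CYP26A1.

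DHRS3 (ENSG00000162496.9, chromosome 1, 12567910 to 12618210, minus strand), a reductase that turns retinal back to retinol, had 2 peaks in intron 1, separated by 1915 bp. The first, of 244 bp at chr1:12602050-12602293, held a RUNX match and no GATA motif or hexamer. The second, of 653 bp at chr1:12604209-12604861, had its midpoint 13675 bp after the start and held a GATA motif 8.5 bp from the midpoint, an AP-1 match beside it and the hexamer repeat centred 76.0 bp away. Over its whole length it held 5 hexamers and 2 GATA motifs.

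CRABP2 (ENSG00000143320.9, chromosome 1, 156699606 to 156705816, minus strand), which carries retinoic acid to its receptors, had no peak. The nearest, of 767 bp at chr1:156749320-156750086, was 43504 bp before its 5′ end and 907 bp from a start of PRCC. With 50 kb on each side in place of 20 kb, CRABP2 became the seventh gene with a peak. At that width 44.8% of all protein-coding genes had one.

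Of the genes known to rise in promyelocytic cells given retinoic acid, TGM2 (ENSG00000198959.12, chromosome 20, 38127385 to 38166578, minus strand), an enzyme that cross-links proteins, had 2 peaks of very different length. The longer, at chr20:38158152-38160546, was 2395 bp, the 70th longest of the list and the longest of the 11, and lay in intron 2 with its midpoint 5921 bp after the start. Counts over whole peaks grow with length, and all peaks held 2.64 GATA motifs and 2.74 hexamers per kb. Over its whole length this peak held 8 GATA motifs, 10 receptor hexamers and 11 RUNX matches, but no GATA motif in its centre. Its central 31 bases occur 3 times in hg38, and it is the sole one of the 11 with a repeated centre (10.7% of all peaks). Without peaks of that kind, 10 peaks and the same 6 genes were left. The shorter, of 235 bp at chr20:38127353-38127587, had its midpoint in the untranslated part of exon 13 and also within RPRD1B, a gene that overlaps TGM2 there. None of the motifs searched was found in it. ASB2 (ENSG00000100628.12, chromosome 14, 93934166 to 93976739, minus strand), which selects the targets of a ubiquitin ligase, had no peak and was the gene of the 10 that lay farthest from one. The nearest, at chr14:93046046-93046443 (398 bp), was 887723 bp from it, and the peak-free stretch around it was 2330 kb long, the 273rd longest.

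The 11 peaks were compared with the full list by length. Their median was 454 bp (95% interval from order statistics 235 to 2160) and that of all peaks was 451 bp. The medians were thus close, but the interval and the spread within these few peaks were wide. For the 6 peaks that touched a gene body the median was 1393 bp. Of the 11, 3 were over 2 kb (all peaks 1.43%), 2 of them in RXRA and 1 in TGM2, and 4 were under 300 bp (all peaks 21.4%), found at RARG, DHRS3 and TGM2. The cuts at 2 kb and 300 bp were not among the measures planned beforehand. The GC content of the centres had a median of 48.5% and ranged from 44 to 70.0%, where that of all peaks had a median of 51.5%. A start site of some gene lay within 3 kb of 5 of the 11 peaks, where 35.6% of all peaks had one. For 8 peaks the nearest coding start was of the gene they were counted for, and for 3, those of PML and RARG, it was of another gene.

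**Figure D2:**
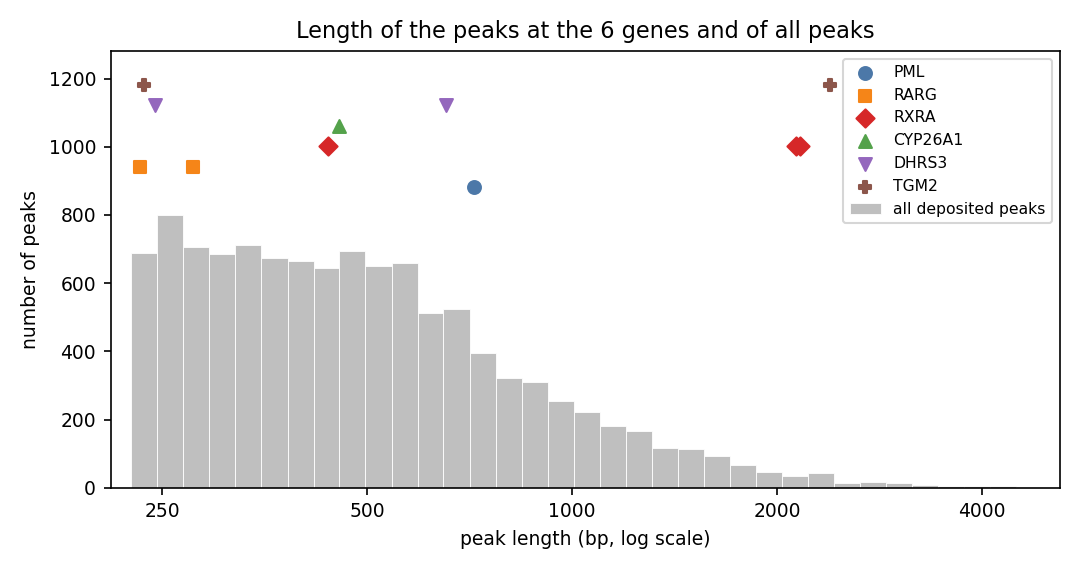
Length of the 11 peaks (coloured points, one shape for each gene, height in the plot without meaning) above the histogram of all 11046 peak lengths, on a log scale in bp. The points of RXRA at 2133 and 2160 bp and of TGM2 at 2395 bp stand in the right tail, and both peaks of RARG are at the left edge.

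Motifs in the central 200 bp were then counted. A GATA motif was found in 5 of the 11 peaks (45.5%, Wilson interval 21.3 to 72.0%) and in 47.1% of all peaks. The 5 were the PML peak, the upstream RARG peak, the third RXRA peak, the CYP26A1 peak and the longer DHRS3 peak. The composite was found in 1 (9.09%, 1.62 to 37.7%), that of CYP26A1, and in 11.1% of all peaks. For both elements the share was within counting error of the whole list. Over whole peaks the GATA share was 63.6% compared with 71.4%, and the composite share 18.2% compared with 22.4%, the second composite being that of RXRA. Counted per length, the 11 peaks held 2.21 GATA motifs per kb and all peaks 2.64.

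A single receptor hexamer was found in 4 of the 11 centres (36.4%, all peaks 40.2%). A hexamer repeat was found in 2 (18.2%, 5.14 to 47.7%), those of CYP26A1 and DHRS3, and in 89 of all peaks (0.806%). The interval lies above the background, but it rests on 2 peaks, and the genes were picked for their ties to retinoic acid. In the central 100 bp the count was 1 of 11, compared with 0.335% of all peaks. Hexamers by themselves were close to the list at 3.22 per kb compared with 2.74.

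A RUNX match (TGNGGT) was found in 7 of the 11 centres (63.6%, 35.4 to 84.8%) and in 43.4% of all peaks, a background within the interval. An E-box (CAGNTG) was found in 4 (36.4%, all peaks 51.5%) and an AP-1 match (TGANTCA) in 1 (9.09%, all peaks 11.9%), in DHRS3. No match was found in the centres for ETS (CNGGAAG, all peaks 19.0%), CEBP (7.44%) or KLF (12.6%), where 0 of 11 allows a share of up to 25.9%. Outside the centres such matches did occur, for example ETS in the PML peak, CEBP in the CYP26A1 peak and KLF in the longer TGM2 peak.

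**Figure D3:**
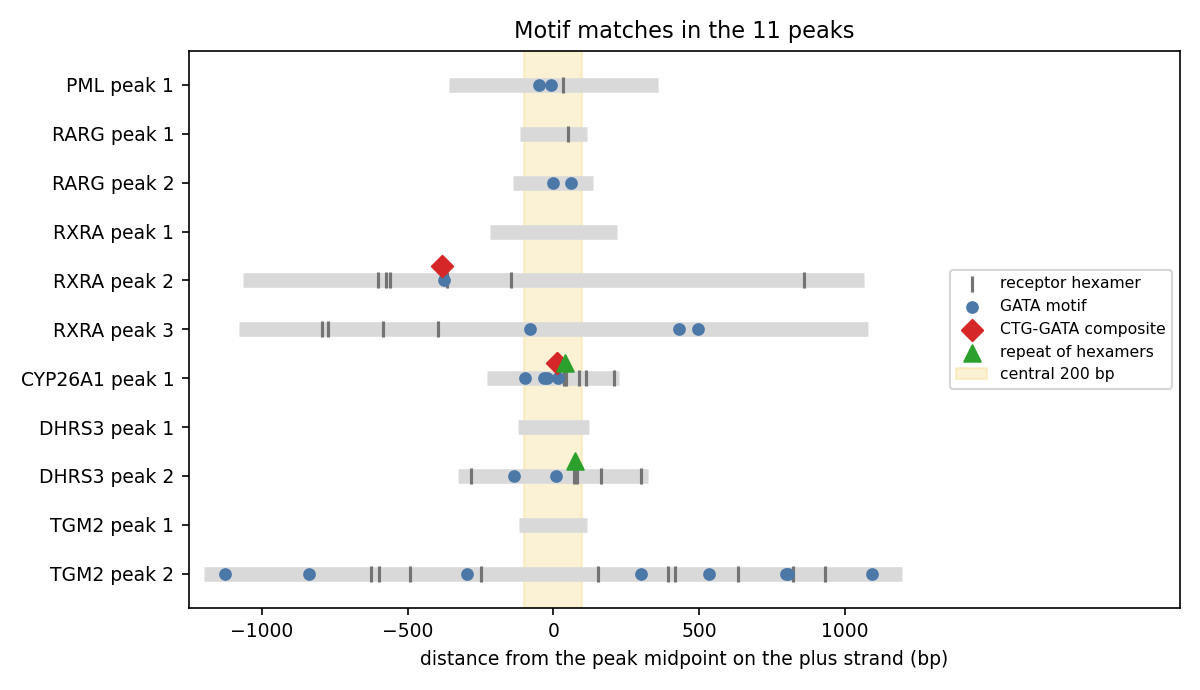
Motif matches along the 11 peaks, by distance in bp from the peak midpoint on the plus strand. Grey bars are the peaks, the shaded band the central 200 bp, blue points GATA motifs, grey ticks receptor hexamers, red diamonds composites and green triangles hexamer repeats. CYP26A1 has a diamond and a triangle inside the band, DHRS3 a triangle inside it and RXRA a diamond 380 bp to the left of the midpoint.

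To ask whether the peaks covered the start sites of these genes, the promoters in the RefSeq table of GRCh38.p14 were used, each with 250 bases before and 50 after the start. The table held 18 promoters of 8 of the 10 genes, and PML and TGM2 had no entry. Of the 18, 0 overlapped a peak, where 814 of all 35116 promoters did (2.32%). At such a share, 0 of 18 cannot be told from the whole table. The annotated RXRA start 278 bp from the midpoint of the first RXRA peak is not in the table. A hexamer repeat was found in 2 of the 18, and in 91 of all 35116 promoters (0.259%). The genes were picked for their ties to retinoic acid, and the 18 promoters belong to 8 genes. A difference between these shares can therefore not be read as a result. Both repeats are printed because they share a spacing of 5 bases. They come from a gene with no peak and from a gene whose peak lies elsewhere. The RARB repeat is chr3:25428210-25428226 on the plus strand and ends 37 bases before the start at 25428263. The CYP26A1 repeat is chr10:93073803-93073819 on the minus strand and ends 74 bases before the start at 93073893.

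RARB promoter repeat: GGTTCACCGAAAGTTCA

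CYP26A1 promoter repeat: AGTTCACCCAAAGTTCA

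The nearest peak was 908 kb from this RARB start and 4031 bp from this CYP26A1 start. The repeat in the CYP26A1 peak, with its spacing of 2 bases, is thus a different match from the one in the promoter. A composite was found in 1 of the 18 promoters, that of CRABP2, and in 1.34% of all promoters.

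To place the genes in their pathway, 5 lists of related genes were searched in the same way. Of 61 genes, 25 had a peak (41.0%, Wilson interval 29.5 to 53.5%), and the background of 31.7% lay within the interval. Of 12 other receptors and cofactors, 5 did (41.7%, 19.3 to 68.0%), among them KAT2B with 2 peaks and HDAC3, NCOA3 and CREBBP with 1 each. The peaks of KAT2B and HDAC3 lay in the flanks. HDAC3 is a deacetylase of the corepressor complex that receptors without ligand hold, and NCOA3, CREBBP and KAT2B are coactivators. The remaining retinoid X receptors, RXRB and RXRG, had none. Of 13 genes of retinoid supply and breakdown, 3 did (23.1%, 8.18 to 50.3%). These were the retinal dehydrogenases ALDH1A2 with 4 peaks and ALDH1A1 with 2, and CYP26C1 through the CYP26A1 peak.

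Of 18 genes known to respond to retinoic acid, 9 had a peak (50%, 29.0 to 71.0%), with 31 peaks in all. CEBPE, a transcription factor of late granulocyte development, had 10 peaks, the longest of 3034 bp. IRF1, an interferon regulatory factor, had 5, the longest of 1694 bp. At each of these genes 2 peaks touched the body and the others lay in the flanks. Of 10 genes of PML nuclear bodies, 3 did (30.0%, 10.8 to 60.3%), among them SP100 and ATRX with 1 peak each, that of SP100 in a flank. Of 8 genes that are fused to RARA in rarer cases of this leukemia, 5 did (62.5%, 30.6 to 86.3%). STAT3 had 8 peaks, the longest of 1667 bp, and 6 of them touched its body. ZBTB16 had 5, the longest of 1025 bp, BCOR had 3, and NUMA1 and STAT5B had 2 each, those of NUMA1 in the flanks. NPM1, FIP1L1 and PRKAR1A had none.

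**Figure D4:**
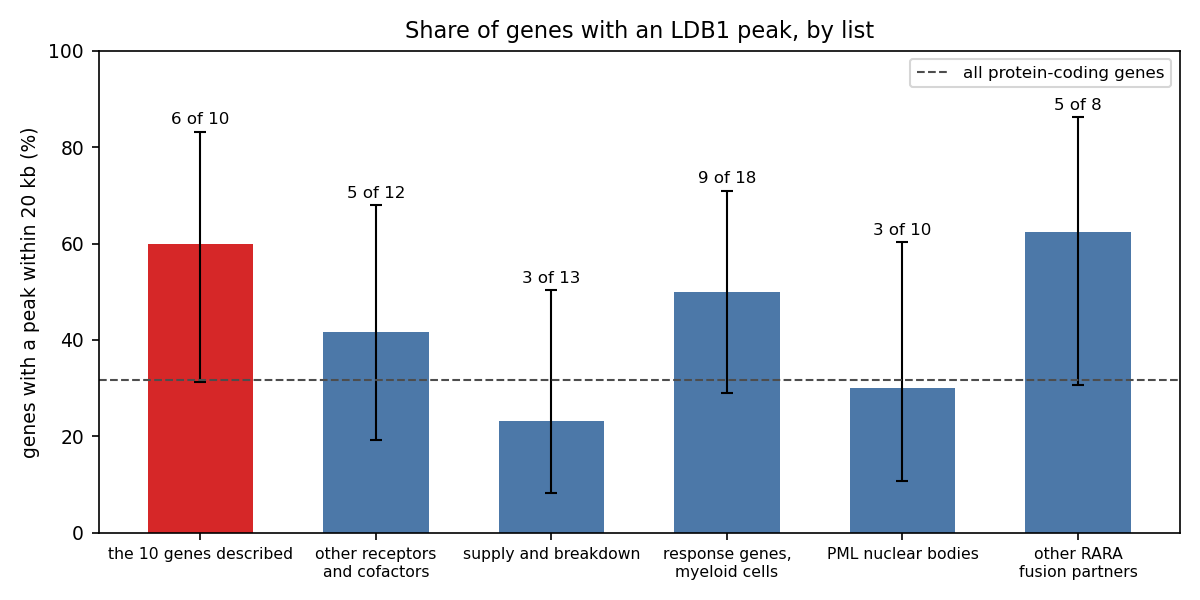
Share of genes with an LDB1 peak in the gene body or within 20 kb, in percent, for the 10 genes (red bar) and 5 lists of related genes (blue bars). Error bars are 95% Wilson intervals and the dashed line is the share of all protein-coding genes, 31.7%. The bars run from 23.1% for supply and breakdown to 62.5% for the other fusion partners, and each interval spans the line.

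As for the cell type on the label, peaks give no expression level and cannot check it. Of 8 markers of promyelocytes and granulocytes, 6 had a peak (75%, 40.9 to 92.9%, all protein-coding genes 31.7%), with none at MPO or CTSG and with ELANE, PRTN3 and AZU1 sharing peaks, so that these 3 are not separate. Of 8 red cell markers, 7 had one (87.5%, 52.9 to 97.8%, all protein-coding genes 31.7%), with 15 peaks at SLC4A1 and none at AHSP. Flank peaks were counted here too, and 5 of those at SLC4A1 touched its body. For both marker lists, unlike the other lists, the background lay below the interval. The promyelocyte interval, however, counts the 3 genes with shared peaks as separate and is thus too narrow. Both lists were chosen with earlier results of these data known, and the peaks counted at HBB and HBA1 lay in the flanks. For neither list can a difference from the background be read from the interval.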

How the data were processed

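The authors sequenced 2 CUT&Tag libraries of NB4, using an antibody against LDB1 for the first and IgG for the second. Per the study's methods and the submitters' processing notes, reads were aligned to hg38 with Bowtie2 2.4.4 and MACS3 3.0 called the peaks from read pairs. Use of the IgG library as control, removal of duplicates and treatment of reads with several placements are not given in the sources used here, and peaks in repeated sequence could be affected. The methods name a plasmid for LDB1 overexpression, though not in their CUT&Tag section. The deposited columns give, for each peak, where it starts, where it ends and how many bp it spans, without a score, q-value, summit or depth. Columns of other samples numbered 0.

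Genes came from GENCODE release 44, bases from the hg38 genome and promoters from RefSeq. A peak counted for each gene whose window it overlapped, so 1 peak can count for several genes. Numbers of introns and exons refer to the canonical transcript. Motifs were exact matches on both strands, counted once where both strands matched. The midpoint stood in for the summit. Intervals are 95% Wilson intervals for shares, Poisson intervals for densities and order statistics for medians. The members and lists were chosen with earlier results of these data known. Named from the lists were the 2 genes with the most peaks, and every gene with a peak where 5 or fewer had one, apart from items that are not reported here. Sequences shown by rule were peak centres with a composite or hexamer repeat. Alternatives were other flanks (0, 3 and 50 kb), midpoints inside the window, peaks longer than the median, central 31 bases found once, peaks under 1 kb apart merged, the nearest start site, and motif windows of 100 bp or the whole peak. Leaving out RARB was added after seeing the data. Scripts ran under Python 3.11.15 with pysam 0.24.0, SciPy 1.17.1, matplotlib 3.10.9, numpy 2.4.6 and pandas 2.3.3, and were tested on simulated data.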

Additional observations from a re-analysis of the deposited data

How the results depend on the processing

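No paired analysis was possible because the LDB1 and IgG groups held 1 library each. Of 52 alternative values of 8 results, 47 stayed within counting error or, for counts, within 1.5 times, and 5 did not. With the gene body alone, 3 genes had a peak (RXRA, DHRS3 and TGM2, background 16.5%), 6 peaks were left and the composite share was 0 of 6 peaks, since the CYP26A1 peak lies past the gene end. With peaks longer than the median alone, 6 peaks were left. The number of genes with such a peak, 5 (background 21.3%), counted as stayed, RARG having none. Without RARB, which had no peak, the density could only rise and was 1.47 per 100 kb. Among the values that stayed, counting each peak for the nearest start site alone left 4 genes (RXRA, CYP26A1, DHRS3 and TGM2, background 20.4%). This removed PML and RARG. The median length with the gene body alone also stayed, at 1393 bp (6 peaks), compared with 454 bp. With so few peaks the intervals are wide, so staying within them is a weak criterion. Peak positions without height cannot rank peaks by signal, and regions under the calling threshold are not seen.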

Other observations

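Hexamer repeats differed by spacing across the list and the windows 1000 bp to either side of each midpoint. With 5 bases between the hexamers, the spacing of the DHRS3 peak, 16 peaks (0.145%, Wilson interval 0.0892 to 0.235%) and 10 of 22091 flanks (0.0453%, 0.0246 to 0.0833%) held a repeat, and 8 of the 16 peaks also held a GATA motif (50%, 28.0 to 72.0%). That share was 30.0% at a spacing of 1 base, 29.1% (18.8 to 42.1%) at 2 bases and 33.7% (24.7 to 44%) over all repeats, and 47.1% over all peaks. With 2 bases, the spacing of the CYP26A1 peak, the order was the other way, with 55 peaks (0.498%, 0.383 to 0.647%) and 243 flanks (1.1%, 0.971 to 1.25%). With 1 base, 20 peaks (0.181%, 0.117 to 0.280%) and 25 flanks (0.113%, 0.0767 to 0.167%) held one. Promoters held 0.131%, 0.0399% and 0.0883% at spacings of 1, 2 and 5 bases, in windows longer than those of the peaks. Of all 89 peaks with a repeat, 32 (36%) had central bases that occur more than once in hg38, compared with 10.7% of all peaks. The peaks of CYP26A1 and DHRS3 were not among them. These windows are neighbours in 1 library, and the part of repeated sequence in these shares was not tested.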
